A study of Mus musculus with 16 samples.

Results

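The 10 heat shock chaperone genes described here encode HSP70 proteins (Hspa1a, Hspa1b, Hspa8 and the HSP110 protein Hsph1), their J-domain partner Dnajb1, the HSP90 protein Hsp90aa1 with its activator Ahsa1, the small heat shock protein Hspb1, and the mitochondrial chaperonin pair Hspd1 and Hspe1. They were chosen by symbol as chaperones that answer to heat shock factor HSF1, and are 10 of the 38924 genes in the files. The label calls the set cytosolic, but the products of Hspd1 and Hspe1 work in mitochondria. All 10 were detected in every library and had enough counts to be tested, as did 18111 genes in all.

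PolyA RNA was sequenced from the periaqueductal gray of male Mus musculus, a midbrain region with opioid-sensitive neurons of the descending pain pathway, to ask how morphine tolerance and RGSz1 affect gene expression there. RGSz1, encoded by Rgs20, belongs to a family of proteins that switch off G protein signals. The 16 libraries formed 4 groups of 4: RGSz1 knockout with morphine, RGSz1 knockout naive, wildtype with morphine and wildtype naive. Each library pooled tissue punches of 2 mice. The labels give no age, strain, dose or time of killing. No vehicle group is labelled, so morphine and the handling that came with it cannot be told apart. The source is named only as brain cells, and the 8 neuron, 9 oligodendrocyte and 8 astrocyte markers were all detected in each group.

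Chaperones bind unfolded proteins and keep them from clumping. In resting cells HSF1 is held inactive by HSP70 and HSP90 proteins; when unfolded proteins draw these away, HSF1 binds repeated GAA units, called heat shock elements, and switches on genes such as Hspa1a, Hspa1b, Dnajb1 and Hspb1. Hspa8 and Hsp90aa1, in contrast, are abundant in unstressed neurons, where HSPA8 also strips clathrin from vesicles at synapses.

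The 150 bases before the transcription start of 5 of these genes are shown. They set genes with letter matches to paired GAA units beside Dnajb1, the gene with the clearest difference between the groups. A match of letters does not show that HSF1 binds there, and a lack of 1 does not show that it does not. The sequences are from RefSeq on GRCm38.p6, each written 5′ to 3′ on the strand of its gene. They lie at chr17:34972157-34972306 (minus strand) for Hspa1a, chr17:34959239-34959388 (minus) for Hspa1b, chr5:135887769-135887918 (plus) for Hspb1, chr1:55087998-55088147 (plus) for Hspe1 and chr8:83608025-83608174 (plus) for Dnajb1. Capitals mark each match to GAANNTTC or TTCNNGAA, a pair of inverted GAA units, with the spacer bases included.
Hspa1a: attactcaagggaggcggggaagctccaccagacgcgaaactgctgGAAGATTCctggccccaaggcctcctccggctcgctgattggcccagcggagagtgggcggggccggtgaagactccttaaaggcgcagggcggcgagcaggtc
Hspa1b: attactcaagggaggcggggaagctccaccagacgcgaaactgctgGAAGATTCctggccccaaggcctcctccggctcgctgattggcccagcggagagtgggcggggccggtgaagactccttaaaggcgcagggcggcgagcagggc
Hspb1: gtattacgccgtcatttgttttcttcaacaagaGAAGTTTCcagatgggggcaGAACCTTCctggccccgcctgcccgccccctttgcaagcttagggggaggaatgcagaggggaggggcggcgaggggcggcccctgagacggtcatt
Hspe1: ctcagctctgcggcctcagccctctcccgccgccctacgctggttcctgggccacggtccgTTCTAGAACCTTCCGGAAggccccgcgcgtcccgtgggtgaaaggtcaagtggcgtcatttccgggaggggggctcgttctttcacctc
Dnajb1: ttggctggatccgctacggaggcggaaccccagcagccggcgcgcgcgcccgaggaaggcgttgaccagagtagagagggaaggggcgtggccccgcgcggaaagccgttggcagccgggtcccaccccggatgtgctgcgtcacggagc
The Hspa1a and Hspa1b stretches were the same at 149 of 150 bases, and each held 1 match, starting 104 bases before the transcription start. Hspb1 held 2 separate matches, and Hspe1 held 3 overlapping ones that form a run of 18 bases. Hspe1 and Hspd1 are neighbours transcribed away from each other, and the run of Hspe1 also stood in a window of Hspd1 on the other strand.

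RefSeq windows of 300 bases, from 250 before to 50 after a start, were at hand for 8 of the 10 genes, and Hsp90aa1 and Hspa8 are named only. Searched in both forms, each motif covers both strands. A match to the 2-unit motif stood in 6 of the 8 genes, against 17.0% of 27025 genes with windows. The 3-unit motif (GAANNTTCNNGAA or TTCNNGAANNTTC), whose matches hold a 2-unit match, stood in Hsph1, Hspe1 and Hspd1, against 0.66% of all genes with windows. The genes were chosen as answering to HSF1, and these counts are not of separate sequences. The Hspa1a and Hspa1b windows were the same at 296 of 300 bases, and Hspe1 and Hspd1 share 1 run. The 3-unit match of Hsph1 lay after the start in both of its windows. Neither Dnajb1 nor Ahsa1 had a match, which says only that these letters are not in these windows.

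Rgs20 was at much the same level under both labels: in libraries labelled knockout it stood at 12.1 ± 0.667 CPM with morphine and 12.6 ± 0.95 CPM in naive libraries, against 13.1 ± 1.04 CPM with morphine and 12.8 ± 0.824 CPM in naive wildtype libraries (mean ± SD, n = 4 each). CPM here are TMM-scaled counts for each mega count in a library. The counts give 1 number per gene and do not show which exons were read, so "knockout" below is the label. Totals over genes ran from 19.1 to 55.0 mega counts. Wildtype naive 2 and knockout morphine 3 stood apart in markers of meningeal fibroblasts, cells of the membranes around the brain, and results that rest on them are given with and without them.

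The chaperone transcripts spanned a wide range of levels, which per kb of exon and thus between genes were ordered as follows over the 16 libraries. Hspa8, the constitutive HSP70, was highest at 194 ± 16.7 CPM per kb (mean ± SD), and its lowest library overlapped the highest of Hsp90aa1, at 155 ± 7.73 CPM per kb. Both stood far above the next genes. Hspd1 (49.2 ± 2.83 CPM per kb), the mitochondrial HSP60, Hsph1 (47.4 ± 3.13) and Hspe1 (37.7 ± 2.81), the lid of the HSP60 barrel, overlapped from neighbour to neighbour. Ahsa1, which speeds the ATPase of HSP90, stood at 25.2 ± 1.16 CPM per kb and overlapped Dnajb1 at 18.9 ± 1.93. The lowest were stress-induced genes: Hspb1 stood at 2.30 ± 1.22 CPM per kb, Hspa1a at 0.642 ± 0.17 and Hspa1b at 0.617 ± 0.155, and the last pair overlapped. Hspa8 lay above 99.4% of the tested genes per kb and Hspa1b above 19.2%. The counting tool, HTSeq, tallied 24.11 to 26.54% of the total per library as reads aligned to more than 1 place, outside the gene counts. Genes that share sequence can thus be counted too low, by an amount not known, and their levels and order are uncertain. The share of 50-base stretches also found in other genes was 66.3% for Hspa1a, 62.3% for Hspa1b, 50.1% for Hspb1, 47.5% for Hsp90aa1, 42.1% for Hspd1, 39.4% for Hspa8 and 22.8% for Hspe1, against 4.7% for Ahsa1, 0.4% for Dnajb1 and 0.0% for Hsph1. The span of Gm20481, annotated on the other strand, covers most of the exon bases of Hspa1a. Only a minority of the 50-base stretches of Hspa1a also occur in Gm20481 transcripts. Without strand marks, reads of those shared stretches cannot be told apart.

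**Figure D1:**
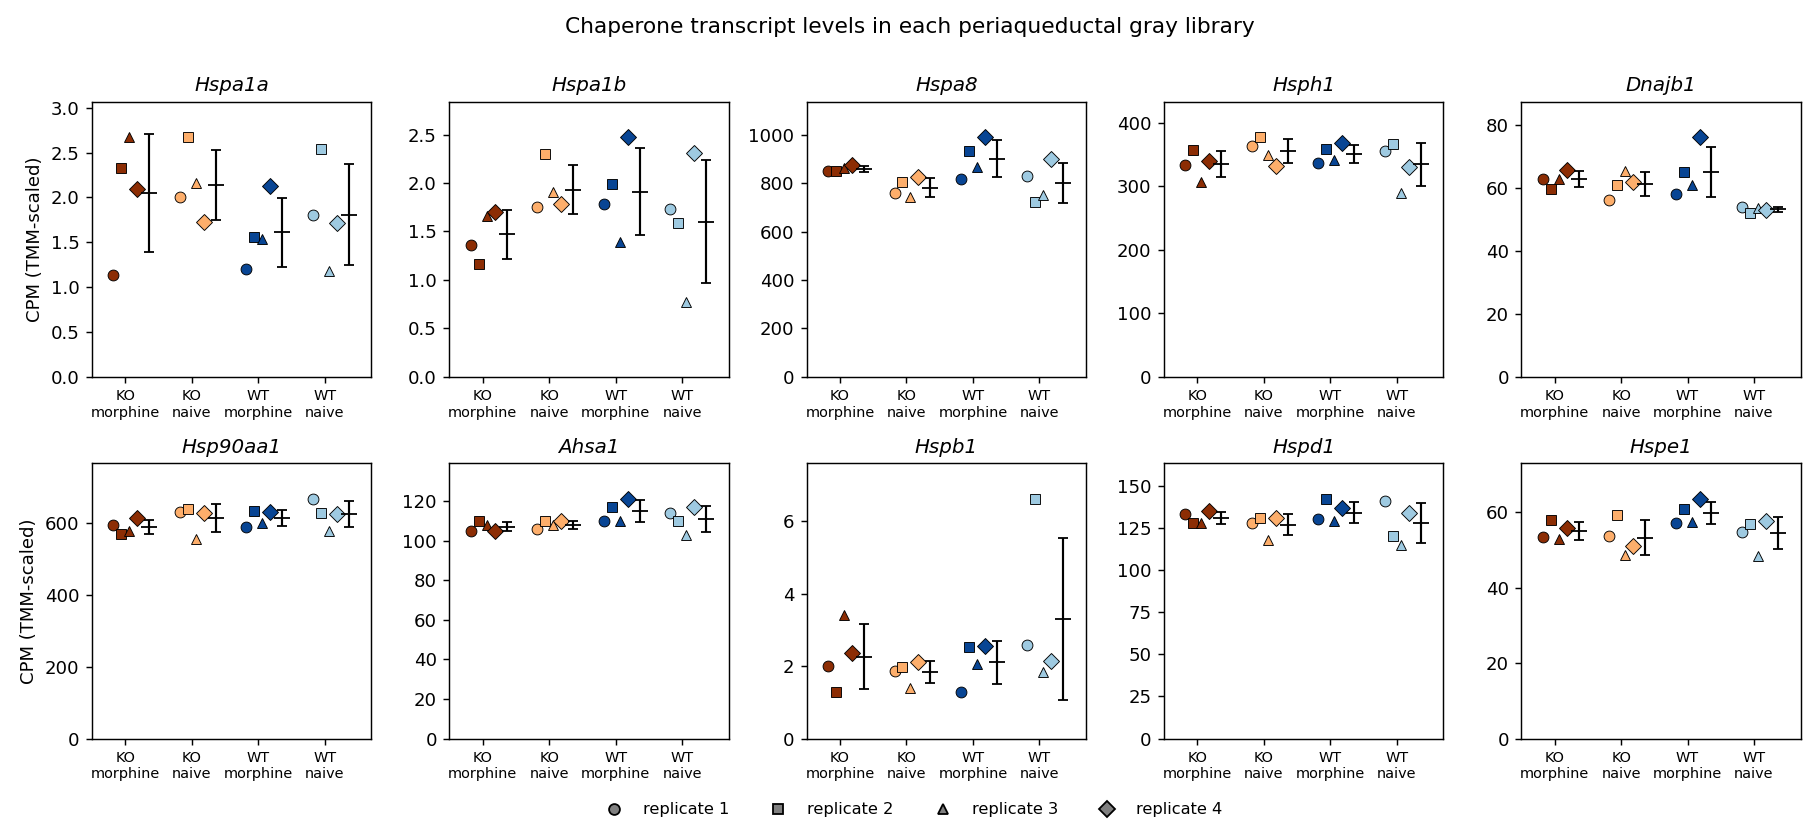
Level of each chaperone transcript (CPM, TMM-scaled) in the 16 libraries, 4 per group. Points are libraries, shaped by replicate number, and bars show the mean ± SD of each group. The 4 wildtype naive libraries are the lowest for Dnajb1, between 52.1 and 54.0 CPM, and wildtype naive 2 stands alone for Hspb1 at 6.6 CPM.

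With morphine in wildtype mice, 1 of the 10 chaperone genes rose and none fell, against 4.41% of all tested genes called in either direction and 2.34% called higher. The gene was Dnajb1, whose product feeds unfolded proteins to HSP70 and starts its ATPase. Dnajb1 stood at 58.1, 65.2, 61.0 and 76.1 CPM in wildtype morphine libraries, against 54.0, 52.1, 53.8 and 53.1 CPM in wildtype naive libraries. The groups did not overlap, and the naive libraries lay within a narrow band, with a coefficient of variation of 1.66%, against 12.1% with morphine. A higher group without overlap was seen in 5.96% of tested genes. Dnajb1 rose by 0.29 ± 0.06 (SE) on the log2 scale, or 1.22-fold (95% interval 1.11 to 1.34), with adjusted p = 0.0163 (quasi-likelihood test of edgeR, Benjamini-Hochberg adjusted over all tested genes). The call was lost when only the wildtype libraries were fitted (adjusted p = 0.0669) and without wildtype naive 2 and knockout morphine 3 together (0.28 ± 0.07, adjusted p = 0.059), with edgeR in each case.

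With morphine in the libraries labelled knockout, none of the 10 chaperone genes passed the test, against 11.5% of all tested genes called by edgeR's quasi-likelihood test. At an unadjusted p under 0.05 the count was also 0 of 10, against 25.5% of tested genes, and it was 0 of 10 with DESeq2 as well. In wildtype libraries 3 of the 10 had an unadjusted p under 0.05 with edgeR, against 3637 of the 18111 tested genes. Dnajb1 stood at 63.0, 59.6, 62.9 and 65.9 CPM in knockout morphine libraries, against 56.3, 61.1, 65.4 and 61.9 CPM in knockout naive libraries. These groups overlapped along most of their range. The Dnajb1 log2 difference was 0.04 ± 0.07 (adjusted p = 0.737, edgeR), with a 95% interval of 0.937-fold to 1.13-fold. That interval overlapped the wildtype one, 1.11-fold to 1.34-fold. The difference between the genotypes in the Dnajb1 morphine effect was -0.25 ± 0.09 on the log2 scale (knockout minus wildtype). It did not pass over all genes (unadjusted p = 0.0154, adjusted p = 0.314, edgeR), and 12.1% of tested genes had an unadjusted p under 0.05. None of the 10 chaperones passed this interaction test with edgeR, nor did any tested gene (0.00%), while 2200 genes had an unadjusted p under 0.05, and DESeq2 called 107.

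Dnajb1 also differed between the naive groups by label. The knockout naive libraries, at 56.3 to 65.4 CPM, all lay above the wildtype naive libraries, at 52.1 to 54.0 CPM. The log2 difference was 0.20 ± 0.06 (14.8% higher, adjusted p = 0.18, edgeR), and it did not pass the test. Without wildtype morphine 4, which is in neither group but enters the shared spread, the same difference passed (adjusted p = 0.0462, edgeR). A higher group without overlap was seen in 4.14% of tested genes in this comparison. All 12 libraries of the other groups lay above all 4 wildtype naive libraries for Dnajb1, and 0.282% of tested genes had that pattern. The pattern was described because Dnajb1 showed it, and the same for other groups or the other direction was not counted. The share is therefore no measure of how often chance gives such a pattern. The Dnajb1 differences with morphine in wildtype mice and between naive groups share the wildtype naive libraries. With morphine, Dnajb1 averaged 62.9 ± 2.59 CPM in knockout and 65.1 ± 7.89 CPM in wildtype libraries (SD, n = 4 each), a log2 difference of -0.05 ± 0.07 that changed sign to 0.04 ± 0.05 without wildtype morphine 4, the library with the highest Dnajb1 level.

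Over both genotypes together, 2 of the 10 chaperone genes rose with morphine and none fell, against 17.1% of tested genes called in either direction and 9.02% called higher. They were Dnajb1, by 0.17 ± 0.05 on the log2 scale (1.12-fold, adjusted p = 0.0187, edgeR), and Hspa8, by 0.15 ± 0.05 (1.11-fold, adjusted p = 0.0285, edgeR). Hspa8 stood at 850, 850, 862 and 875 CPM in knockout morphine libraries, against 759, 803, 742 and 826 CPM in knockout naive libraries. These groups did not overlap, which was so for a higher morphine group in 8.27% of tested genes. Hspa8 stood at 819, 931, 867 and 989 CPM in wildtype morphine libraries, against 830, 721, 750 and 902 CPM in wildtype naive libraries. The wildtype groups overlapped, with naive library 4 above 2 of the morphine libraries.

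Neither genotype gave a call for Hspa8 alone: the log2 difference was 0.13 ± 0.06 in knockout (adjusted p = 0.2) and 0.17 ± 0.06 in wildtype libraries (adjusted p = 0.144, edgeR). In knockout libraries it passed when only those were fitted (adjusted p = 0.0355, edgeR), and in wildtype libraries it passed without wildtype naive 4 (0.23 ± 0.06, adjusted p = 0.0252, edgeR). The call over both genotypes was near its threshold. It was lost in edgeR's test without wildtype naive 3 (adjusted p = 0.0616), knockout naive 1 (0.0564), knockout naive 3 (0.0513), wildtype morphine 2 (0.0521), wildtype morphine 4 (0.0567) or knockout morphine 4 (0.0515), each time leaving Dnajb1 as 1 gene called. It was also lost without wildtype naive 2 and knockout morphine 3 together (adjusted p = 0.0657, edgeR).

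**Figure D2:**
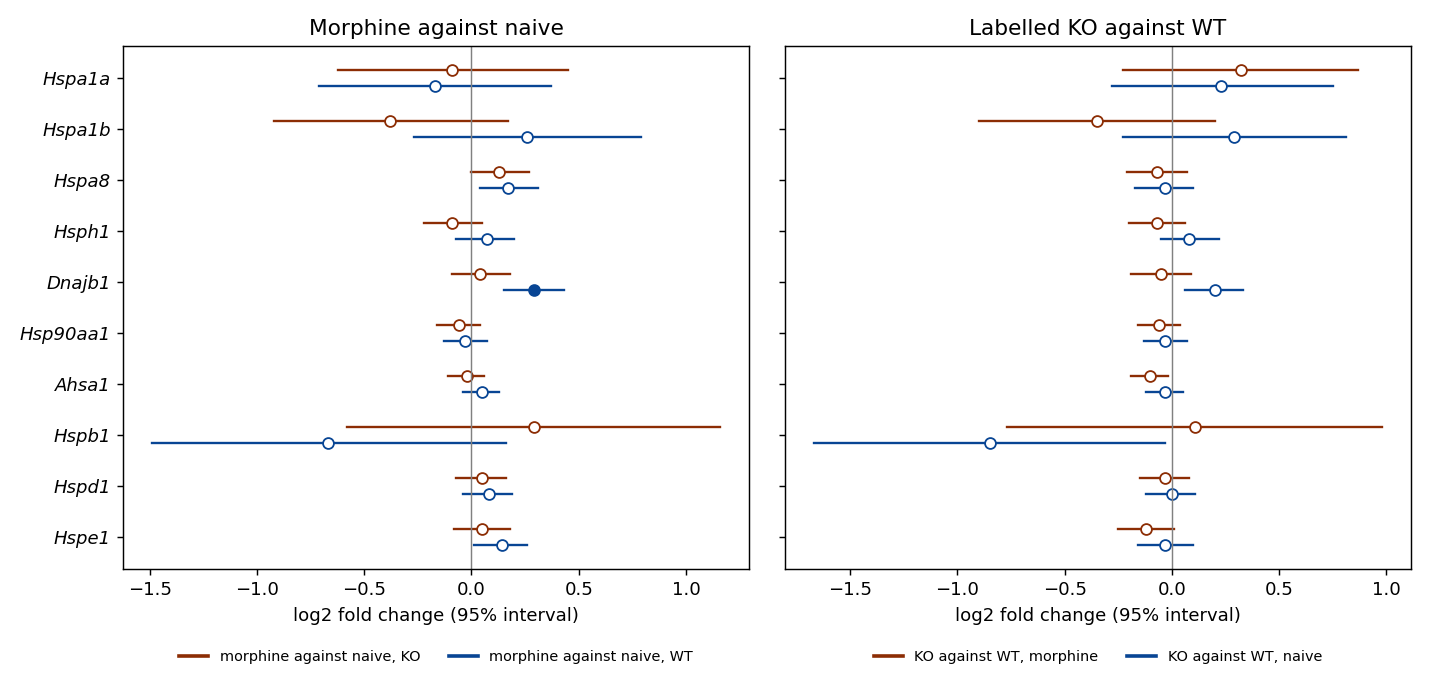
Log2 fold change and 95% interval of each chaperone gene with morphine against naive (left) and knockout against wildtype labels (right), from edgeR. Filled points passed an adjusted p of 0.05 over all tested genes. Only Dnajb1 with morphine in wildtype libraries, at 0.29, is filled, and the intervals of Hspa1a, Hspa1b and Hspb1 are the widest.

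Cell type markers moved with morphine beside Dnajb1 and Hspa8. In tissue, more cells of a type and more RNA per cell cannot be told apart. Of all 18111 tested genes, edgeR called 1026 higher and 1056 lower in knockout libraries, and 424 higher and 374 lower in wildtype libraries. Over both genotypes it called 1634 higher and 1455 lower. Of 10 serotonin neuron markers 9 were called higher in knockout and 0 in wildtype libraries, with medians of 1.95 and 0.56 on the log2 scale. Their summed level was 595 to 1790 CPM in knockout morphine against 167 to 408 CPM in knockout naive libraries, and 732 to 950 CPM in wildtype morphine against 267 to 915 CPM in wildtype naive libraries. Of 9 oligodendrocyte markers 6 were called lower in knockout libraries (median -0.47). In wildtype libraries 0 were called and 6 of 9 had a positive difference (median 0.05). Their summed level was 4480 to 5700 CPM in knockout morphine against 6440 to 7290 CPM in knockout naive libraries. It was 5760 to 6580 CPM in wildtype morphine libraries, against 6040, 4120, 5750 and 7190 CPM in wildtype naive libraries. The lowest of these, wildtype naive 2, also stood apart in meningeal markers. The oligodendrocyte marker differences without it are not given here. No marker of either list passed the interaction test of edgeR. Of 8 neuron markers 4 were higher over both genotypes (2 in knockout and 0 in wildtype libraries alone), with sums of 7120 to 7610 CPM in knockout morphine against 6930 to 7280 CPM in knockout naive libraries, and 7380 to 7690 CPM in wildtype morphine against 6540 to 7450 CPM in wildtype naive libraries. Microglial markers were lower for 6 of 8 genes over both genotypes (1 in knockout and 1 in wildtype libraries alone), with sums of 208 to 234 CPM in knockout morphine against 231 to 260 CPM in knockout naive libraries, and 204 to 220 CPM in wildtype morphine against 224 to 271 CPM in wildtype naive libraries. Endothelial markers were lower for 4 of 8 genes over both genotypes (3 in knockout and 3 in wildtype libraries alone), with sums of 152 to 213 CPM in knockout morphine against 206 to 236 CPM in knockout naive libraries, and 160 to 182 CPM in wildtype morphine against 183 to 231 CPM in wildtype naive libraries. No marker of these lists was at 0 in any group, and their part in the results for Dnajb1, Hspa8 and the other chaperone genes was not tested.

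The inducible HSP70 genes, whose products refold proteins after stress, showed no called difference in any comparison. Hspa1a stood at 1.14, 2.33, 2.67 and 2.09 CPM in knockout morphine libraries, against 2.0, 2.67, 2.16 and 1.73 CPM in knockout naive libraries. In wildtype libraries it stood at 1.2, 1.56, 1.54 and 2.13 CPM with morphine, against 1.8, 2.54, 1.18 and 1.72 CPM in naive libraries. The groups overlapped in both genotypes. The Hspa1a log2 difference with morphine was -0.09 ± 0.25 in knockout and -0.17 ± 0.25 in wildtype libraries, and the 95% intervals, 0.65-fold to 1.37-fold and 0.613-fold to 1.29-fold, leave room for changes larger than that of Dnajb1 in either direction.

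Hspa1b stood at 1.36, 1.16, 1.66 and 1.7 CPM in knockout morphine libraries, against 1.75, 2.3, 1.91 and 1.78 CPM in knockout naive libraries. The morphine libraries all lay below the naive ones, a pattern of 8.78% of tested genes, and the difference of -0.38 ± 0.26 did not pass (adjusted p = 0.393, edgeR). In wildtype libraries Hspa1b stood at 1.78, 1.99, 1.39 and 2.47 CPM with morphine, against 1.73, 1.59, 0.77 and 2.31 CPM in naive libraries. The wildtype groups overlapped, and the difference there had the other sign (0.26 ± 0.25, adjusted p = 0.597, edgeR). The difference between the genotypes in the effect on Hspa1b was -0.64 ± 0.36 (adjusted p = 0.494, edgeR).

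Hspa1a and Hspa1b are near-identical neighbours on chromosome 17, and 58.8% of the 50-base stretches of Hspa1a transcripts also occur in Hspa1b. Reads of such stretches cannot be assigned to 1 copy, and raw counts were low, at 36 to 131 for Hspa1a and 22 to 98 for Hspa1b. Values of either copy alone are therefore uncertain. The sum of both copies averaged 3.53 ± 0.767 CPM in knockout morphine and 4.07 ± 0.637 CPM in knockout naive libraries, and 3.52 ± 0.778 CPM in wildtype morphine and 3.41 ± 1.01 CPM in wildtype naive libraries (SD, n = 4 each). Summed before the fit, the pair differed with morphine by -0.22 ± 0.22 on the log2 scale in knockout (adjusted p = 0.599) and by 0.04 ± 0.22 in wildtype libraries (adjusted p = 0.941, edgeR). The signs were opposite, as for Hspa1b alone, and neither the pair nor Hspa1b was called.

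Hsph1, the HSP110 protein that reloads HSP70 with ATP, stood between 307 and 357 CPM in knockout morphine libraries and between 332 and 377 CPM in knockout naive libraries. In wildtype libraries it stood between 337 and 368 CPM with morphine and between 290 and 366 CPM in naive ones. Its log2 differences with morphine were small, at -0.09 ± 0.06 in knockout and 0.07 ± 0.06 in wildtype libraries, and neither passed (adjusted p = 0.429 and 0.587, edgeR).

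The HSP90 pair had the smallest spreads between replicates. Hsp90aa1, the stress-inducible cytosolic HSP90, stood at 596, 571, 578 and 614 CPM in knockout morphine libraries, against 631, 641, 556 and 628 CPM in knockout naive libraries. Knockout naive 3 lay below all other libraries of its group and set the overlap. In wildtype libraries Hsp90aa1 stood at 589, 634, 601 and 632 CPM with morphine, against 667, 630, 578 and 626 CPM in naive libraries. Its log2 difference with morphine was -0.06 ± 0.05 in knockout and -0.03 ± 0.05 in wildtype libraries, and the 95% intervals, 0.896-fold to 1.03-fold and 0.917-fold to 1.05-fold, end at or below 1.05-fold. About 47.5% of the 50-base stretches of Hsp90aa1 transcripts also occur in other genes, mostly pseudogenes.

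Ahsa1 had the smallest spread between replicates, with a within-group SD of 0.058 on the log2 CPM scale. With morphine it stood at 105, 110, 108 and 105 CPM in knockout libraries, against 110, 117, 110 and 121 CPM in wildtype libraries. The knockout libraries lay at or below the lowest wildtype library, with no overlap before rounding, as for a lower group in 3.02% of tested genes. The log2 difference between the labels was -0.10 ± 0.04 (unadjusted p = 0.0213, adjusted p = 0.403, edgeR) and did not pass. None of the 10 chaperones passed in this comparison, against 0.530% of tested genes called, and Ahsa1 was the only 1 with an unadjusted p under 0.05, against 9.64% of tested genes. DESeq2 likewise called none of the 10 here.

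The mitochondrial pair, HSP60 (Hspd1) and its lid HSP10 (Hspe1), was not called in any comparison. Hspd1 stood between 128 and 135 CPM in knockout morphine libraries, against 118 to 131 CPM in knockout naive libraries, and between 129 and 142 CPM in wildtype morphine libraries, against 115 to 141 CPM in wildtype naive libraries. Hspe1 stood at 57.2, 60.8, 57.5 and 63.4 CPM in wildtype morphine libraries, against 54.6, 56.8, 48.4 and 57.7 CPM in wildtype naive libraries. Only naive library 4 lay above a morphine library. The Hspe1 log2 difference there was 0.14 ± 0.06 (unadjusted p = 0.0389, adjusted p = 0.22, edgeR), and in knockout libraries it was 0.05 ± 0.06. The 2 genes overlap by 112 bases on opposite strands and the kit does not mark the strand, so reads of that stretch cannot be told apart.

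Hspb1, the small heat shock protein also known in mouse as Hsp25, was the most variable chaperone, with a within-group SD of 0.564 on the log2 CPM scale. It stood at 1.99, 1.27, 3.42 and 2.37 CPM in knockout morphine libraries, against 1.86, 1.97, 1.4 and 2.11 CPM in knockout naive libraries. In wildtype libraries it stood at 1.27, 2.53, 2.05 and 2.56 CPM with morphine, against 2.59, 6.6, 1.84 and 2.14 CPM in naive libraries. Wildtype naive 2 lay far above every other library, and knockout morphine 3 came next.

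The 8 meningeal fibroblast markers (Dcn, Lum, Col1a1, Col1a2, Col3a1, Slc6a13, Ogn and Igf2) were highest in the same 2 libraries. Their summed level was 430 CPM in wildtype naive 2, 307 CPM in knockout morphine 3 and 127 CPM in knockout morphine 1, and between 54.9 and 72.7 CPM in the other 13 libraries. By group it was 55.1 to 307 CPM in knockout morphine, 67.4 to 72.7 CPM in knockout naive, 54.9 to 71.1 CPM in wildtype morphine and 57.1 to 430 CPM in wildtype naive libraries, with none of the 8 at 0. Hspb1 in naive libraries differed between knockout and wildtype by -0.85 ± 0.38 on the log2 scale (unadjusted p = 0.0442, adjusted p = 0.365, edgeR). Without wildtype naive 2 and knockout morphine 3 that difference was -0.22 ± 0.22 (adjusted p = 0.796, edgeR), and with morphine in wildtype libraries the difference was -0.67 ± 0.38 with both and -0.04 ± 0.22 without them (adjusted p = 0.356 and 0.96, edgeR). None of the 10 chaperones passed between naive groups, against 0.906% of tested genes called by edgeR. At an unadjusted p under 0.05 there were 2, Dnajb1 and Hspb1, against 12.9% of tested genes, and DESeq2 called none of the 10.

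**Figure D3:**
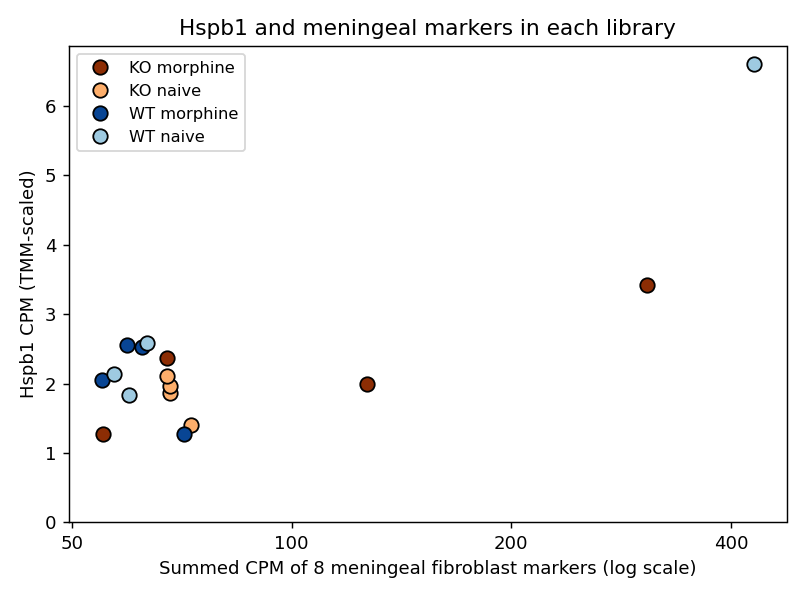
Hspb1 level (CPM, TMM-scaled) against the summed level of 8 meningeal fibroblast markers (CPM, log scale) in each of the 16 libraries, coloured by group. Wildtype naive 2, at 430 and 6.6 CPM, and knockout morphine 3, at 307 and 3.42 CPM, stand away from the other libraries.

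The deviation of each chaperone from its group mean was set beside the mean scaled deviation of the other 9 across the 16 libraries. Pearson's r ran from 0.35 for Dnajb1 and 0.38 for Hspb1 to 0.8 for Hspa1b and Ahsa1, with a median of 0.65. For the 18101 tested genes outside the 10, the median r with the mean of all 10 was 0.02 and the quartiles were -0.23 and 0.25. The genes outside the chaperone lists whose deviations followed the mean of all 10 most closely were Terf2 (0.84), Macc1 (0.82), Nfkbie (0.82), Gm17112, Med21 and Atp5h (0.81 each). These values are descriptions of 16 libraries that share their scaling, and the genes were picked for being highest. Wildtype naive 3 had the lowest summed level of the 10 among all libraries, at 1940 CPM. In its group it was lowest for every chaperone but Dnajb1 and Hspa8. Without it, the wildtype morphine differences were 5.3e-05 for Hsph1, 0.03 for Hspd1 and 0.01 for Ahsa1. With all libraries they were 0.07, 0.08 and 0.05. The part of this library in the correlations was not tested. Averaged over the 10 chaperones, log2 CPM centred over the libraries was -0.011 ± 0.1 in knockout morphine, -0.003 ± 0.076 in knockout naive, 0.03 ± 0.156 in wildtype morphine and -0.016 ± 0.202 in wildtype naive libraries (SD, n = 4 each).

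Outside the 10, the cytosolic chaperonin TRiC, a ring that folds actin and tubulin, rose as a whole list. All 8 TRiC subunit genes rose over both genotypes, with log2 differences of 0.07 to 0.15 and a median of 0.12, against a median of -0.007 and 9.02% called higher over all tested genes. Cct4 averaged 133 ± 6.48 CPM in knockout morphine and 118 ± 1.74 CPM in knockout naive libraries (SD, n = 4 each), and Tcp1 averaged 178 ± 6.51 CPM in wildtype morphine and 160 ± 7.42 CPM in wildtype naive libraries. Over both genotypes Cct4 rose by 0.15 ± 0.03 and Tcp1 by 0.14 ± 0.03 on the log2 scale (adjusted p = 0.00151 and 0.00123, edgeR). Leaving out any 1 library left 7 or 8 of the 8 called.

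By genotype, 7 of 8 TRiC genes were higher in knockout, where 5.67% of all tested genes were called higher, and 3 of 8 in wildtype libraries, where 2.34% were. These counts were less steady than that over both genotypes. With 1 library left out, the knockout count was 4 (knockout naive 1 or knockout morphine 1 out), 3 (knockout naive 4 out) or 2 (knockout naive 2 or knockout morphine 2 out). The wildtype count was 0 without wildtype naive 2, wildtype naive 3, wildtype morphine 2 or wildtype morphine 4. It was 1 without knockout naive 2, knockout naive 4 or wildtype morphine 1, and 0 when only the wildtype libraries were fitted or without wildtype naive 2 and knockout morphine 3 together. No TRiC gene was called between genotypes by edgeR.

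Counts over both genotypes in the lists that follow stand against 9.02% of all tested genes called higher and 17.1% called in either direction. J-domain proteins, the family of Dnajb1, had 7 of 15 genes higher and none lower (median 0.07), and 4 without wildtype naive 3, without knockout naive 2 or with no filter on low counts. Dnajb4, another heat-inducible member, rose by 0.22 ± 0.03 (adjusted p = 0.000396, edgeR). Dnaja1, a partner of Hspa8, rose by 0.13 ± 0.03 (adjusted p = 0.00556, edgeR), and Dnajc6, which brings HSPA8 to clathrin coats, by 0.09 ± 0.02 (adjusted p = 0.00909, edgeR). Of the other HSP70 and HSP110 genes 4 of 8 tested were higher and none lower (median 0.08), and 2 without wildtype naive 3. Hspa13 rose by 0.19 ± 0.03 (adjusted p = 5.81e-05, edgeR), and Hspa2 by 0.24 ± 0.05 (adjusted p = 0.00342, edgeR).

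HSP90 co-chaperones and Hsp90ab1 had 3 of 14 genes higher over both genotypes and none lower (median 0.04). Fkbp5, an immunophilin of steroid receptor complexes that glucocorticoids induce, averaged 60.6 ± 10.4 CPM in knockout morphine and 28.1 ± 4.37 CPM in knockout naive libraries, and 70.3 ± 6.48 CPM in wildtype morphine and 28.7 ± 3.26 CPM in wildtype naive libraries (SD, n = 4 each). It rose by 1.10 ± 0.13 in knockout and by 1.29 ± 0.13 in wildtype libraries on the log2 scale (adjusted p = 0.000309 and 7.86e-05, edgeR), more than any of the 10 chaperones. Cdc37l1 rose by 0.34 ± 0.07 in wildtype libraries (adjusted p = 0.00728, edgeR), and its difference in knockout libraries was -0.03 ± 0.07 (adjusted p = 0.846, edgeR). The difference between the genotypes in its morphine effect was -0.37 ± 0.09 (knockout minus wildtype; unadjusted p = 0.00113, adjusted p = 0.205, edgeR) and did not pass. HSP70 exchange factors and partners had 3 of 10 higher over both genotypes (median 0.07), and 1 without wildtype naive 3. Bag2, a co-chaperone of HSP70, rose by 0.22 ± 0.06 (adjusted p = 0.0214, edgeR), and did not pass without wildtype naive 2 and knockout morphine 3 together (adjusted p = 0.0527, edgeR).

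Other genes known to rise with heat had 5 of 20 higher over both genotypes and none lower (median 0.04), among them Zfand2a at 0.11 ± 0.02 (adjusted p = 0.00562, edgeR) and Cacybp at 0.12 ± 0.03 (adjusted p = 0.0139, edgeR). None of 4 tested small heat shock genes passed, and 1 did without knockout naive 1. Of the mitochondrial chaperones and proteases 2 of 9 were higher, Hspa9 and the protease gene Yme1l1. The count was 1 with no filter on low counts and without wildtype naive 2 and knockout morphine 3 together. Hspa9 lost its call, leaving 1, without any of wildtype naive 2 or 3, knockout naive 1 or 4, wildtype morphine 2 or 4, or knockout morphine 1. Hsf1, the factor itself, averaged 39.6 ± 1.57 CPM in knockout morphine, 40.8 ± 1.77 CPM in knockout naive, 40.3 ± 2.54 CPM in wildtype morphine and 41.2 ± 2.06 CPM in wildtype naive libraries (SD, n = 4 each), with no call in any comparison. Hsbp1, whose product binds HSF1, rose by 0.11 ± 0.02 over both genotypes (adjusted p = 0.00112, edgeR).

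The 9 lists share genes and hold 78 tested genes together. Of these 28 were higher and 1 lower over both genotypes, against 9.02% of all tested genes called higher, and 20 to 29 were higher with any 1 library left out. The lower gene was Hsf4, a heat shock factor, at -0.09 ± 0.03 (adjusted p = 0.0326, edgeR). Its call was lost without any of wildtype naive 2 or 3, knockout naive 2 or 4, wildtype morphine 1 or 3, or knockout morphine 2 or 4. The list median was 0.05 on the log2 scale, against 0.00 for the 10 heat shock chaperones and -0.007 for all tested genes. The 9.02%, here and above, is over tested genes of every level and was not matched to the levels of the lists. Of the 8 neuron markers 4 were also higher over both genotypes, with a median of 0.07. No list gene was called between genotypes or in the interaction by edgeR.

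**Figure D4:**
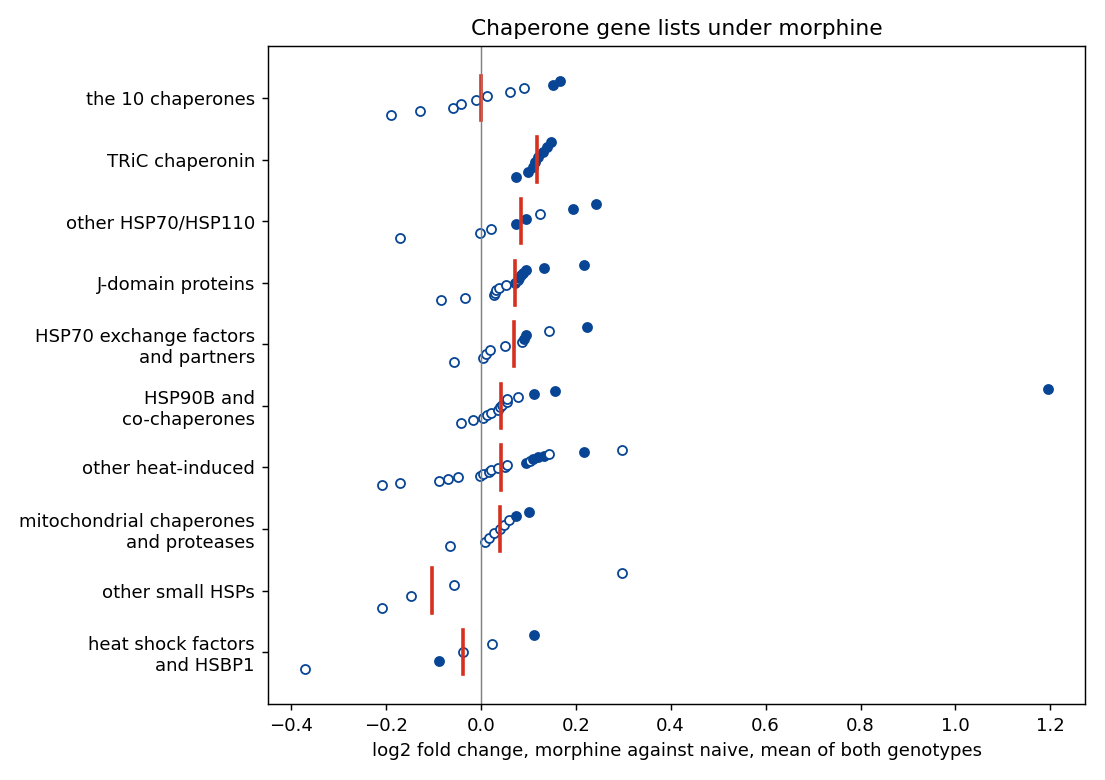
Log2 fold change with morphine against naive, mean of both genotypes, for the 10 chaperones and 9 lists of related genes. Each point is a gene, filled where its adjusted p (edgeR) was under 0.05, and red lines are list medians. All 8 TRiC points are filled, Fkbp5 stands alone at 1.2, and the 10 chaperones lie on both sides of 0.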

How the data were processed

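The deposited files hold raw counts of reads per gene, 1 file per library, made by the authors with HTSeq on mm10; limma is named too (both per the submitters' processing notes). How reads were aligned, with which annotation and with which strand option, is not given in the sources used here. Per the labels' protocols, TRIzol RNA went into TruSeq v2 libraries, a kit without strand marks. HTSeq's tallies of reads assigned to no gene, 38.19 to 40.6% of the total, stayed out of library sizes and tests.

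Groups came from the genotype and treatment labels. GENCODE M21 (GRCm38) gave symbols and positions and matched 37607 of 38924 identifiers. Genes were kept by filterByExpr (minimum count 10), TMM-scaled and tested with edgeR 4.0.16 (R 4.3.3) by its robust quasi-likelihood test in 1 fit of all 16 libraries. Adjusted p-values are Benjamini-Hochberg over all 18111 genes tested, with a threshold of 0.05. Every replicate pair of a group differed by more than counting noise (lowest chi-square per gene 3.73), and each library was counted as 1 sample. The labels call them biological replicates. The fit was tested on simulated data.

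The chaperones, gene lists and tests were chosen with earlier results of these data known. The genes named are all 10 chaperones and, of each other list, up to 4 with the smallest p over both genotypes and any called within a genotype or treatment, of which the text gives a part chosen after the values were seen. Alternatives were DESeq2's size factors and Wald test (DESeq2 1.42.0), limma-voom (limma 3.58.1), no filter, at least 1 CPM in 8 libraries, only the groups compared, a replicate block, Hspa1a and Hspa1b summed, and leaving out each library. Leaving out wildtype naive 2 and knockout morphine 3 together was added after seeing the data. Stretches shared between genes were counted as 50-base words of GENCODE M21 transcripts on both strands.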

Additional observations from a re-analysis of the deposited data

Results flagged for a closer look

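In groups of 4 libraries, 2 of the 40 group and gene combinations of the 10 chaperones had 1 library whose gap to the nearest other, divided by the range of the group, was above Dixon's 95% critical value. Chance gives about 1 in 20. Hsp90aa1 stood at 556 CPM in knockout naive 3, against 628 to 641 CPM in the other 3 knockout naive libraries. Hspb1 stood at 6.6 CPM in wildtype naive 2, against 1.84 to 2.59 CPM in the other 3 wildtype naive libraries. The same library had the highest sum of meningeal markers, 430 CPM, and the part of such cells in its Hspb1 level was not tested.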

How the results depend on the processing

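Dnajb1 kept its call in wildtype libraries under 23 of 25 alternatives and over both genotypes under 24 of 24, and Hspa8 over both genotypes under 17 of 24. With only the groups compared, 0 chaperones were called with morphine in wildtype and 1 (Hspa8) in knockout libraries. Without wildtype naive 2 and knockout morphine 3 together, 0 were called in wildtype libraries and 1 over both genotypes. Leaving out single libraries gave 1 to 2 chaperones called with morphine in wildtype libraries, 1 to 2 over both genotypes and 0 to 1 between naive groups, and 0 in the other comparisons.

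Counts over all tested genes moved more. DESeq2's Wald test called 1242 genes with morphine in wildtype libraries (798 with edgeR), 376 between naive groups (164), 202 between morphine groups (96) and 107 in the interaction (0). Fitting only the wildtype libraries gave 410 genes, no filter gave 1 gene in the interaction, and leaving out the 2 libraries named above gave 2683 genes with morphine in knockout libraries, 104 between naive groups, 236 between morphine groups and 64 in the interaction. Without single libraries the counts were 378 to 1252 with morphine in wildtype, 1037 to 2341 in knockout (2082 with all libraries), 68 to 210 between naive groups, 49 to 129 between morphine groups and 0 to 56 in the interaction. With a replicate block the counts were 512 with morphine in wildtype libraries and 89 between naive groups, and no call of the 10 chaperones changed. With the block, 1 TRiC gene was called with morphine in wildtype libraries (3 without it), and Hsf4 was not called over both genotypes (adjusted p = 0.0528, edgeR). Same-numbered libraries of different groups did not deviate together: r over 24 pairs was -0.28 to 0.13, and 9 of 48 best matches shared the number.

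Some uncalled differences changed sign. With limma-voom, Hspd1 between naive groups was 0.0043 and the Hspa1a interaction -0.01. Without the same 2 libraries, Hspa1a with morphine in wildtype was 0.06 and its interaction -0.29, Hsph1 and Hspb1 over both genotypes 0.03 and 0.01, Hspb1 between morphine groups -0.11, and the interactions of Hspa8 and Hspd1 0.01 each. Leaving out single libraries, log2 differences with morphine ran from -0.06 to 0.01 for Hsp90aa1 and -0.34 to 0.06 for Hspa1a in wildtype, from -0.23 to 0.13 for Hspa1a in knockout, and over both genotypes from -0.01 to 0.03 for Ahsa1, -0.18 to 0.06 for Hspa1b, -0.3 to 0.12 for Hspb1 and -0.04 to 0.01 for Hsph1. Between naive groups they ran from -0.06 to 0.02 for Hsp90aa1, -0.08 to 0.03 for Hspa8, -0.05 to 0.05 for Hspd1 and -0.09 to 0.01 for Hspe1. Between morphine groups they ran from -0.1 to 0.04 for Dnajb1 and -0.11 to 0.28 for Hspb1. Interactions ran from -0.08 to 0.01 for Hsp90aa1, -0.15 to 0.3 for Hspa1a, -0.1 to 0.01 for Hspa8 and -0.08 to 0.02 for Hspd1. The cause of these shifts was not tested. Raw counts were 22 to 340 for Hspa1a, Hspa1b and Hspb1, which limits the precision of their values. For Hspb1 the SE with morphine in wildtype libraries was 0.38 with all libraries and 0.22 without wildtype naive 2 and knockout morphine 3.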
